A study of Mus musculus with 6 samples.

Results

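The genes described here are 10 markers of the smooth muscle contractile programme, *Acta2*, *Tagln*, *Cnn1*, *Myh11*, *Myl9*, *Actg2*, *Myocd*, *Smtn*, *Cald1* and *Lmod1*, out of 55401 genes in a table of RNA-seq counts from whole mouse embryos at E10.5. They were chosen by name, with earlier results from these same libraries known, so their 5C and WT values are given as a description and carry no test of their own. WT embryos carried an unmodified *Igf2* locus. 5C embryos carried 5 tandem copies of *Mir483*, a microRNA gene that lies in an intron of *Igf2*, inserted at that endogenous locus by cassette exchange in ES cells. Per the study's methods, both genotypes were male littermates on a C57BL/6J background, and each of the 3 libraries per genotype was a pool of 2 embryos. The comparison asks how smooth muscle transcripts differ in embryos with an excess of *Mir483*.

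Smooth muscle cells contract when myosin, switched on by phosphorylation of its regulatory light chain, pulls on actin filaments that are dressed with calponin, caldesmon and related proteins. The genes for these proteins are driven largely by serum response factor (SRF), which binds the CArG box, and by its coactivator myocardin. At midgestation the first smooth muscle cells gather around the dorsal aorta and other large vessels, and several of the same genes, *Acta2* and *Tagln* among them, are also transcribed for a time in the early heart. A whole embryo therefore holds these transcripts from more than 1 cell type. In bulk RNA, fewer cells of a type and less RNA per cell cannot be told apart.

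Library totals ranged from 6357343 to 19151368 counts, so 3 counts, taken as the smallest level a library could show, stood for 0.157 to 0.472 CPM (counts per library size). Such floors allow for counting error alone. *Mir483*, the targeted gene, measured between 0.319 and 0.577 CPM in WT against a range of 2.56 to 5.15 CPM in 5C. Its log2 fold change, 5C over WT, was 3.05 with an SE (standard error) of 0.36 (edgeR adjusted p = 0.169). Reads in an mRNA library come from host transcripts that run through the hairpin, and mature miR-483 was not measured here. Some libraries stood apart. WT replicate 1 lay at one end of the first principal component, which held 34.9% of the variance, and yolk sac endoderm markers such as *Afp* and *Apob* summed to 6438 CPM in it, against 138 to 1229 CPM in the other 5 libraries, where 5C replicate 3 was highest. In replicate 2 of both genotypes the Y-linked gene *Kdm5d* was at 0.859 CPM in WT against 0 in 5C, although the pools are described as male, while the other 4 libraries held 35.7 to 67.7 CPM. *Xist*, a transcript of female cells, was high in every library, replicates 1 and 3 included. It measured 535, 849 and 692 CPM in WT against 495, 914 and 640 CPM in 5C. The sex of the embryos in each pool was not tested. Values without some of these libraries are given beside the results they move most.

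The sequences that bear on these genes are the 2 mature products of *Mir483*, whose seeds could pair with member transcripts, and the promoters of the members that hold CArG boxes. Both mature sequences are from RefSeq (GRCm38.p6, minus strand of chromosome 7, chr7:142654932-142654952 for the 3p arm and chr7:142654968-142654989 for the 5p arm), with the seed, bases 2 to 8, in capitals.
miR-483-3p: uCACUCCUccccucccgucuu
miR-483-5p: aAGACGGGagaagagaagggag
The 2 seeds differ, so the arms form separate seed groups. The match to the 3p seed, AGGAGTG, stood in the annotated 3′ UTR of *Cnn1* and *Myocd*. The match to the 5p seed, CCCGTCT, stood in that of *Smtn* and *Lmod1*. These 4 stretches of 3′ UTR are shown with the match in capitals, read 5′ to 3′ on the gene's strand in GRCm38.
*Cnn1*, chr9:22109072-22109100, plus strand: acaaaatgatcAGGAGTGtcttggggtgg
*Myocd*, chr11:65176904-65176932, minus strand: ctgtaaacaacAGGAGTGtgaaggaccac
*Smtn*, chr11:3517573-3517601, minus strand: cccactgctgcCCCGTCTgtcaaaacacc
*Lmod1*, chr1:135367686-135367714, plus strand: ttccttcccaaCCCGTCTatctactgctc
Each of these UTRs held 1 match. The other 6 members, *Acta2* and *Tagln* included, held none. Over 13912 tested genes with an annotated 3′ UTR, 12.4% held a 3p match and 3.45% a 5p match. The median UTR was 664.5 bases in the members and 1200 bases over those genes. A match of letters is a description and does not show a working site.

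Promoters, from 250 bases before to 50 after the start, were given by RefSeq (GRCm38.p6) for *Acta2*, *Cnn1*, *Myl9*, *Smtn*, *Cald1* and *Lmod1*. None was read for *Tagln*, *Myh11*, *Actg2* and *Myocd*. The CArG box was searched as CC, then 6 bases that are each A or T, then GG. It is its own reverse complement, so 1 strand covers both. An exact box was in 1 of the 6 members, *Myl9*, and in 1.81% of 27025 genes with a promoter. With 1 of the 6 middle bases allowed to be C or G, 2 of the 6 members, *Acta2* and *Myl9*, held 2 boxes each, against 11.3% of genes. Both promoters are shown with these boxes in capitals.
*Acta2*, chr19:34255324-34255623, minus strand: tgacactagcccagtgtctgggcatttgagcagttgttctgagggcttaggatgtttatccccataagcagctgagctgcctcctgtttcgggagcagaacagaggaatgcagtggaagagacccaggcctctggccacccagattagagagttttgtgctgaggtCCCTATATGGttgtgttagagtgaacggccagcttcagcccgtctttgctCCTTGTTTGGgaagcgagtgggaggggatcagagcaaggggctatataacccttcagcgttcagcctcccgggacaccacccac
*Myl9*, chr2:156775214-156775513, plus strand: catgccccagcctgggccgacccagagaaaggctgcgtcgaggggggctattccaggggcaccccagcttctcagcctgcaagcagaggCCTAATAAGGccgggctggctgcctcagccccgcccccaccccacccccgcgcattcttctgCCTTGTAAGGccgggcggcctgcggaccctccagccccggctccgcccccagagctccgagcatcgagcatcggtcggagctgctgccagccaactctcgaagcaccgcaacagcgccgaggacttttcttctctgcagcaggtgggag
In *Acta2* the boxes began at -84 and -34 from the start given by RefSeq, and in *Myl9* at -161, the exact box, and -99. Another choice of start would shift these distances. These letters say nothing of the members whose window holds none, since a box can lie outside it.

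To compare levels between genes, counts were divided by exon length and scaled to a common total per library (TPM). The 10 genes spanned a wide range. *Myl9*, the regulatory light chain, was highest at 150.7 ± 14.9 TPM (SD over the 6 libraries), followed by *Acta2*, smooth muscle alpha-actin, at 117.4 ± 14.8 TPM. *Tagln*, the actin-binding protein transgelin, stood at 64.6 ± 7.46 TPM and *Cald1*, caldesmon, at 35.1 ± 2.08 TPM. In every library these 4 genes held this order and together took 91.4% to 92.9% of the members' summed TPM.

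The remaining 6 were much lower. *Smtn*, smoothelin, stood at 12.5 ± 1.47 TPM and *Cnn1*, calponin, at 11.5 ± 2.37 TPM, and their ranges overlapped. *Myocd*, the coactivator myocardin, stood at 2.42 ± 0.30 TPM and *Actg2*, the gamma-actin of enteric smooth muscle, at 2.32 ± 2.04 TPM. *Lmod1*, leiomodin, a nucleator of actin filaments, followed at 1.43 ± 0.35 TPM. *Myh11*, the smooth muscle myosin heavy chain and the usual marker of mature smooth muscle, was lowest at 0.687 ± 0.169 TPM. Among the lowest 4, each gene's range overlapped that of its neighbour. *Tagln* and *Cald1* changed places when the length of the longest coding transcript was used, which lifted *Cald1* to 67.3 TPM against 61.2 TPM for *Tagln*. The summed level of the 10 genes was 420 ± 25.8 TPM in WT and 378 ± 15.5 TPM in 5C (SD, n = 3 each).

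**Figure D1:**
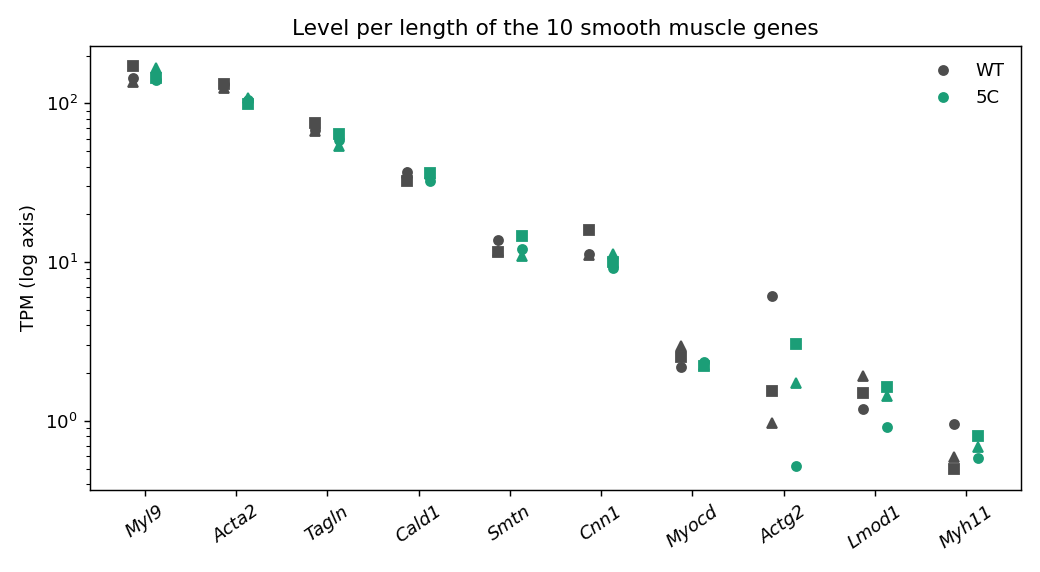
Level of each member in TPM, on a log axis, in the 3 WT (grey) and 3 5C (green) libraries, with circles, squares and triangles for replicates 1, 2 and 3. The genes run from *Myl9*, between 137 and 172 TPM, down to *Myh11*, between 0.496 and 0.955 TPM, and *Actg2* has the widest spread.

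Against genotype, the differences in the members were small. All 10 passed the count filter and each had a fitted log2 fold change (5C over WT) below 0, between -1.08 and -0.05, with a median of -0.21, against -0.0024 over the 16784 genes tested. A value below 0 was fitted for 50.7% of all genes. By edgeR's quasi-likelihood test with Benjamini-Hochberg adjustment over all genes, 0 of the 10 members passed an adjusted p of 0.05, and 0% of all genes did. At an unadjusted p under 0.05, 2 members were lower and none higher, against 3.47% of all genes lower. In 3 members, *Acta2*, *Tagln* and *Myocd*, every 5C library lay below every WT library, as for 5.1% of all genes. DESeq2 called 1 member, *Acta2*, against 0.128% of all genes, and limma-voom called 0, against 0% of all genes. Since the members were chosen with this contrast known, nothing is read from these counts.

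The actins come first. *Acta2* (ENSMUSG00000035783, GRCm38 chr19:34241090-34255590, minus strand) measured 95.2, 92.9 and 87.1 CPM in WT replicates 1 to 3 and 69.9, 66.5 and 75.2 CPM in the 5C replicates. The 3 WT libraries lay close together and above the 3 5C libraries, with a gap wider than the spread within either genotype. The means were 91.7 ± 4.16 and 70.6 ± 4.401 CPM (SD, n = 3 each), and the fitted log2 fold change was -0.38 (SE 0.07), or 0.768 times the WT level. These levels rest on 546 to 1814 counts per library, whose counting error, 3.05% at the mean count, was below the spread of 4.53% in WT and 6.24% in 5C. With each library left out in turn the value stayed between -0.43 and -0.34.

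*Actg2* (chr6:83512905-83536265, minus strand) gave a different picture, because it was barely detected. Its CPM values were 3.10, 0.773 and 0.479 in WT and 0.242, 1.45 and 0.854 in 5C, from 59, 9 and 3 counts and from 4, 17 and 12 counts. WT replicate 1 stood above the rest, with an exact 95% Poisson interval of 2.36 to 3.99 CPM against an upper bound of at most 2.32 CPM in the other 5, and the remaining libraries of the genotypes overlapped. Such intervals cover counting error only. The fitted log2 fold change of -1.08 had an SE of 0.69, and it ranged from -1.63 to -0.54 as other libraries were left out. Without replicate 2 of both genotypes it was -1.98. Without WT replicate 1, which was also the highest in yolk sac endoderm markers, *Actg2* no longer passed the count filter.

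The myosin genes showed no separation of genotypes. *Myl9* (chr2:156775420-156781658, plus strand) measured 54.7, 63.7 and 50.3 CPM in WT against 49.0, 51.1 and 61.3 CPM in 5C. The highest library of each genotype lay above most of the other genotype, and the log2 fold change was -0.07 with an SE of 0.11. *Myh11* (chr16:14194535-14291372, minus strand) measured 2.36, 1.20 and 1.44 CPM in WT against 1.33, 1.88 and 1.64 CPM in 5C, from 9 to 45 counts. Its WT libraries enclosed all the 5C libraries. Its log2 fold change, -0.13 with an SE of 0.30, turned to 0.30 without WT replicate 1, so no direction can be given for it.

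**Figure D2:**
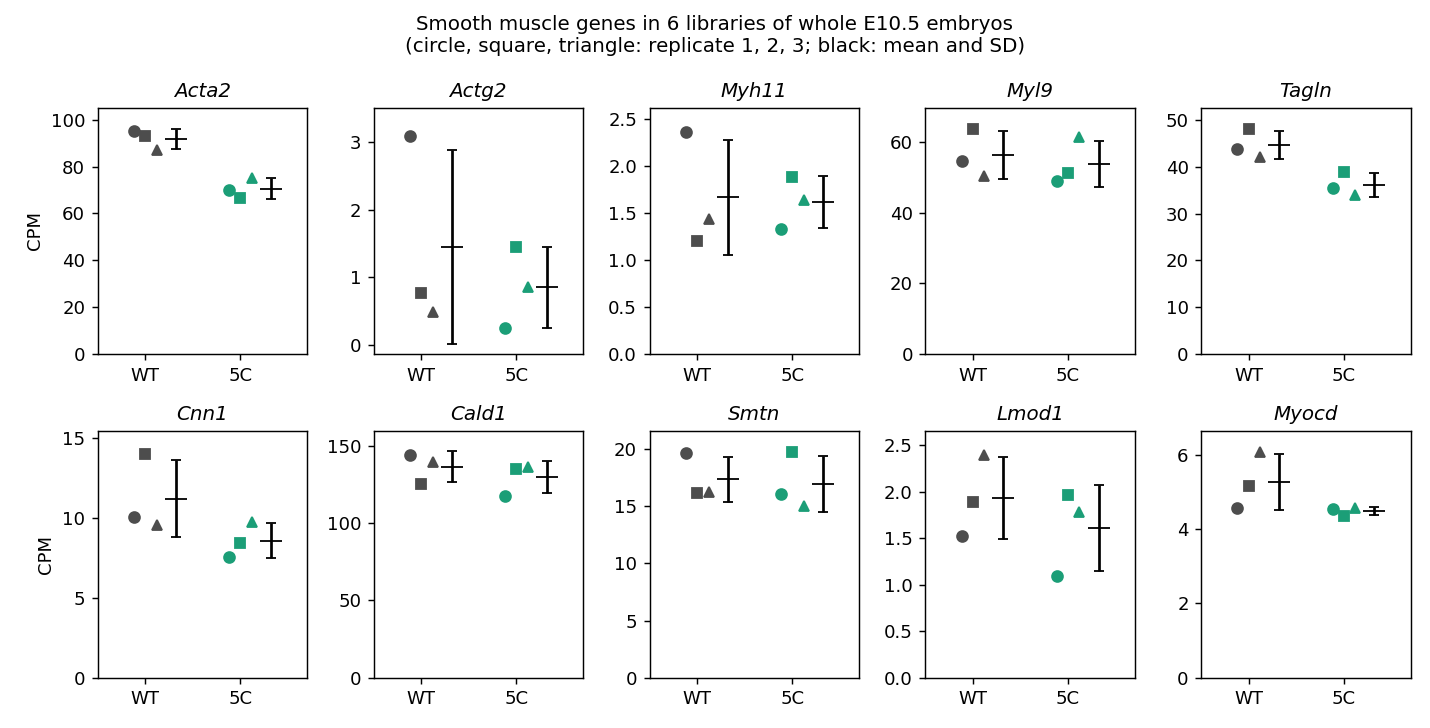
CPM of each member in the WT (grey) and 5C (green) libraries, with circles, squares and triangles for replicates 1, 2 and 3 and with the mean and SD in black, each gene on its own axis. In *Acta2* and *Tagln* the 3 5C libraries sit below the 3 WT libraries, in *Myocd* the ranges nearly meet, and in the other 7 genes they overlap.

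Of the 5 thin filament genes, *Tagln* was the one whose genotypes did not overlap. *Tagln* (chr9:45929619-45936058, minus strand) measured 43.8, 48.0 and 42.1 CPM in WT against 35.4, 38.9 and 33.9 CPM in 5C. All 3 5C libraries lay below the lowest WT library. The means were 44.6 ± 3.03 and 36.1 ± 2.58 CPM (SD, n = 3 each), and the log2 fold change was -0.31 with an SE of 0.09, between -0.37 and -0.25 with each library left out. Exons of *Pcsk7* and *Gm48529* lie opposite 67.9% of the exon bases of *Tagln*. The library kit keeps strand, but the strand setting of the counting is not given in the sources used here.

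*Cnn1* (chr9:22099216-22109630, plus strand) measured 10.1, 14.0 and 9.57 CPM in WT against 7.57, 8.45 and 9.75 CPM in 5C. The genotypes overlapped, since 5C replicate 3 lay above WT replicate 3. Its log2 fold change of -0.39 had an SE of 0.18 and leaned on WT replicate 2, without which it was -0.20.

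*Cald1* (chr6:34598500-34775473, plus strand) was the most abundant member by CPM. It measured 144.2, 125.1 and 139.4 CPM in WT against 117.6, 135.0 and 135.9 CPM in 5C, with a log2 fold change of -0.07 and an SE of 0.08, between -0.13 and -0.0078 with each library left out. *Smtn* (chr11:3517523-3540612, minus strand) measured 19.6, 16.1 and 16.3 CPM in WT against 16.1, 19.7 and 15.02 CPM in 5C, with a log2 fold change of -0.05 and an SE of 0.14. In both genes the genotypes overlapped in most of their range. *Lmod1* (chr1:135324807-135368065, plus strand) measured 1.52, 1.89 and 2.39 CPM in WT against 1.09, 1.96 and 1.78 CPM in 5C, from 15 to 29 counts. At this depth no difference in *Lmod1* was detectable, with a log2 fold change of -0.22 and an SE of 0.30.

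*Myocd* (chr11:65176561-65269989, minus strand), the only transcriptional regulator among the members, measured 4.56, 5.15 and 6.06 CPM in WT against 4.54, 4.35 and 4.56 CPM in 5C. The genotypes did not overlap, but the lowest WT library and the highest 5C library both round to 4.56 CPM. The log2 fold change was -0.21 with an SE of 0.17, from 38 to 87 counts per library, and without WT replicate 3 it was -0.12. The counting error at the mean count, 12.6%, was of the size of the spread in WT, 14.3%.

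**Figure D3:**
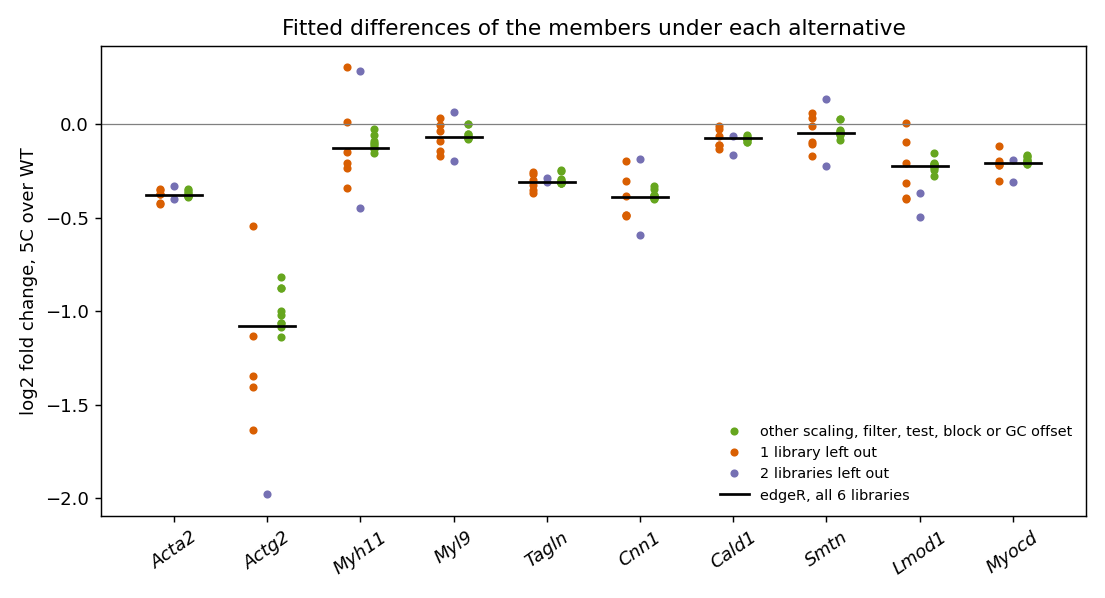
Fitted log2 fold change (5C over WT) of each member from edgeR on all 6 libraries (black bars) and under each alternative (points, coloured by kind). *Acta2* stays between -0.43 and -0.33 and *Tagln* between -0.37 and -0.25, while *Myh11*, *Myl9*, *Smtn* and *Lmod1* cross 0.

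Across the 6 libraries, the members did not vary as 1 block. Pearson correlations of log2 CPM were 0.785 for *Acta2* with *Tagln*, 0.75 for *Acta2* with *Cnn1*, 0.747 for *Tagln* with *Cnn1* and 0.826 for *Cnn1* with *Myl9*. A second set, *Actg2* with *Myh11* at 0.861 and *Myh11* with *Smtn* at 0.757, shared high values in WT replicate 1 and 5C replicate 2. *Acta2* with *Myh11* gave 0.0549. These are descriptions over 6 libraries that include the genotype difference. Transcripts most like the members' mean profile were *Osbpl10* (r = 0.981), *Rbm28* (r = 0.969), *Yap1* (r = 0.965), *Sdha* (r = 0.964) and *Ccdc80* (r = 0.957), of 12026 genes with a mean of at least 5 CPM. That profile is weighted to *Actg2*, whose swings between libraries were the widest.

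A further list held 48 genes that regulate or accompany smooth muscle contraction, of which 47 were tested. In this list 33 had a fitted value below 0 and 14 above, against 50.7% of all genes below 0, with a median log2 fold change of -0.11. By edgeR, 0 passed after adjustment over all genes, and DESeq2 and limma-voom also called 0. At an unadjusted p under 0.05, 5 were lower and 0 higher, against 3.47% of all genes lower. In 5 the 5C libraries lay wholly below WT, as for 5.1% of all genes.

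Among the 12 regulators, 10 were fitted below 0, with no adjusted call. *Tgfb1*, a growth factor that promotes smooth muscle differentiation, had a log2 fold change of -0.63 with an SE of 0.30 (edgeR adjusted p = 0.781). WT replicate 3 stood at 11.5 CPM against 4.34 to 5.88 CPM in the other 5 libraries. Without it the value was -0.22 with an SE of 0.19. *Gata6*, a transcription factor of vascular smooth muscle, had -0.26 with an SE of 0.16 (edgeR adjusted p = 0.781), which was -0.13 without 5C replicate 1 and -0.47 without replicate 2 of both genotypes. Among 8 genes of myosin light chain regulation, a list that also holds the essential light chain *Myl6*, 3 were fitted below 0 and 5 above, with a median of 0.0050. *Rock1*, a kinase that restrains myosin phosphatase, had 0.09 with an SE of 0.07, and *Ppp1r12b*, a targeting subunit of that phosphatase, had -0.11 with an SE of 0.09.

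The 20 thin filament and cytoskeletal genes included 15 fitted below 0 and 4 of the 5 unadjusted calls, against 3.47% of all genes lower at that threshold. *Vcl*, vinculin, measured 165.8, 155.2 and 164.8 CPM in WT against 146.5, 138.5 and 132.0 CPM in 5C. *Tln1*, talin, which links integrins to vinculin and actin, measured 205.2, 180.1 and 221.9 CPM in WT against 180.0, 161.1 and 151.1 CPM in 5C. Both had every 5C library below every WT library, though the gap in *Vcl* was smaller than the spread within either genotype and in *Tln1* the ranges nearly met. The log2 fold changes were -0.22 with an SE of 0.07 and -0.30 with an SE of 0.09 (edgeR adjusted p = 0.781 for each).

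Of the 3 surface and channel genes tested, *Pln*, phospholamban, had 0.21 with an SE of 0.17, which was 0.061 without WT replicate 1 and 0.00018 with 5C replicate 3 also left out. *Itga8*, an integrin subunit, had -0.11 with an SE of 0.11, between -0.18 and -0.04 with each library left out. Of the 4 other actins, *Actc1*, cardiac alpha-actin, had a log2 fold change of -0.21 with an SE of 0.08 and 5C wholly below WT (edgeR adjusted p = 0.781). Without WT replicate 2 it was -0.12, and without replicate 2 of both genotypes -0.084. *Actb*, a cytoplasmic actin, had 0.10 with an SE of 0.08, and 24.1% of its 40-base windows also occur in other genes. The share was 0.852% in *Acta2*, 0.707% in *Myh11*, 0.355% in *Myocd* and 0 in the other 7 members.

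**Figure D4:**
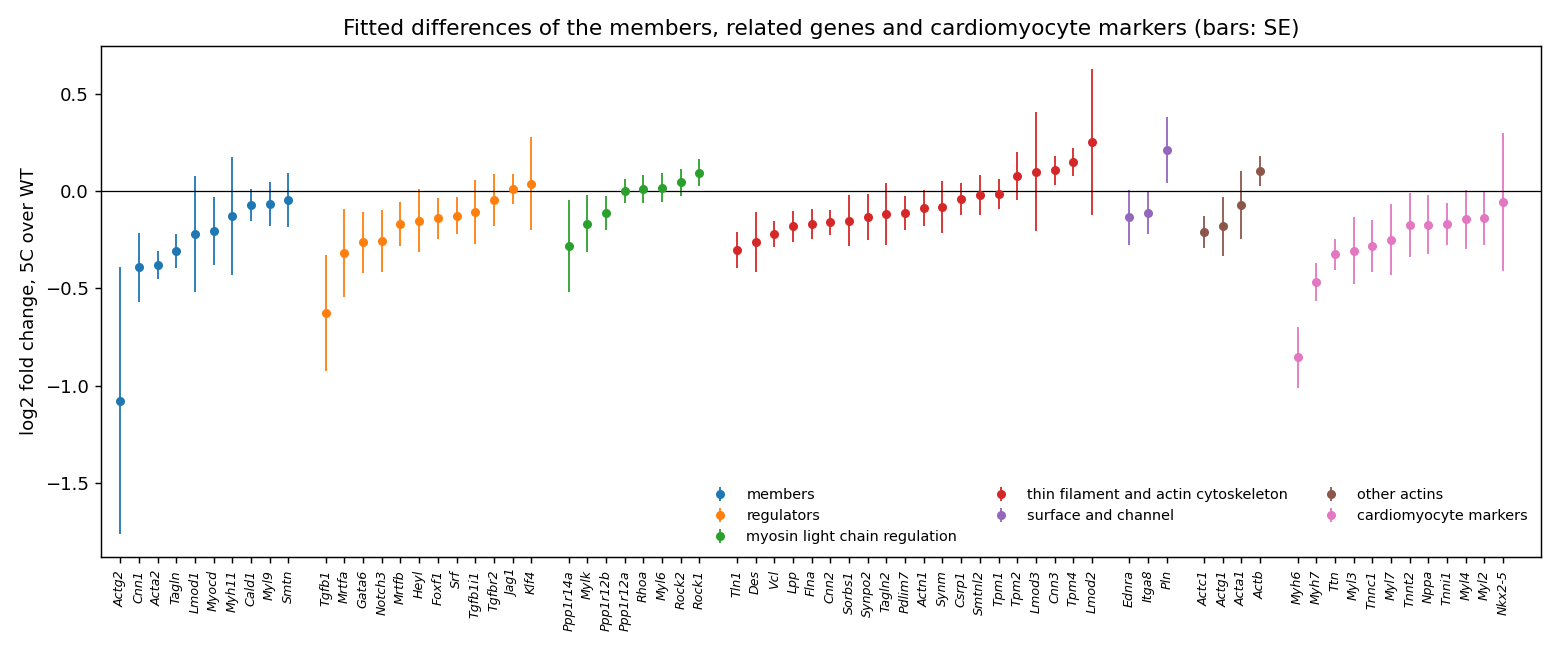
Fitted log2 fold change (5C over WT) with its SE for the 10 members, the 47 related genes tested, by role, and the 12 cardiomyocyte markers. Most values lie between -0.5 and 0.25, *Actg2* has the widest bar, and all 12 cardiomyocyte markers lie below 0.

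Markers of other cell types were measured in the same libraries. All 12 cardiomyocyte markers were fitted below 0, with a median of -0.21, against 50.7% of all genes below 0. By edgeR, 0 of the 12 passed after adjustment and 3 were lower at an unadjusted p under 0.05, against 3.47% of all genes lower. Their summed level was 1105, 1423 and 1264 CPM in WT against 1017, 988 and 1043 CPM in 5C. Every 5C sum lay below every WT sum, but this rests on *Ttn*. Without *Ttn* the sums were 482.5, 685.9 and 525.0 CPM in WT against 445.8, 430.6 and 496.1 CPM in 5C, so that 5C replicate 3 lay above WT replicate 1. *Myh7*, a cardiac myosin heavy chain, had a log2 fold change of -0.47 with an SE of 0.10, and *Ttn*, titin, had -0.32 with an SE of 0.08 (edgeR adjusted p = 0.781 for each). *Myh6*, the other cardiac heavy chain, named here after its values were seen, had -0.85 with an SE of 0.16 (edgeR adjusted p = 0.781).

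When *Acta2* was divided by the cardiomyocyte sum, a ratio chosen after the values were seen, it was 0.0861, 0.0653 and 0.0689 in WT and 0.0688, 0.0673 and 0.0721 in 5C. The genotypes overlapped. They overlapped too without *Ttn*, which took the largest share of the sum, with means of 0.166 ± 0.031 in WT and 0.154 ± 0.0026 in 5C (SD, n = 3 each). For *Tagln* the ratio to the whole sum was 0.0355 ± 0.0035 in WT and 0.0356 ± 0.0035 in 5C. After the same division by either sum all 10 members overlapped between genotypes, as 7 of them had before it. The WT sums varied more between libraries than *Acta2* did, so division widened the WT spread of *Acta2*. Overlap after division can come from that spread alone and says nothing of the source of a difference. The part of heart tissue in the lower *Acta2* and *Tagln* was not tested.

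**Figure D5:**
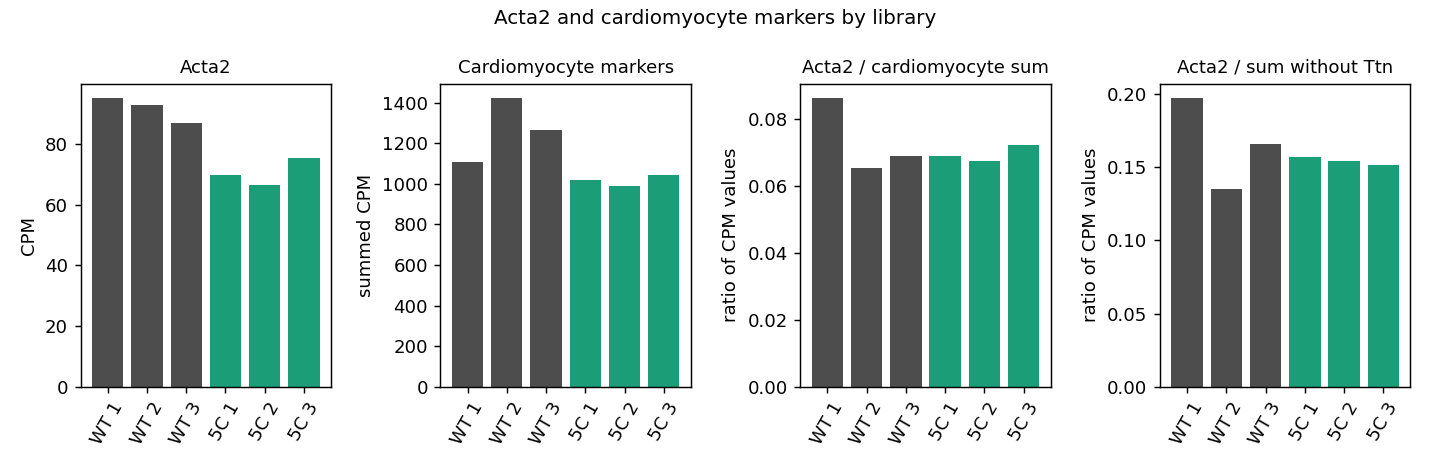
CPM of *Acta2*, summed CPM of the 12 cardiomyocyte markers, and the ratio of *Acta2* to that sum with and without *Ttn*, as bars for each WT (grey) and 5C (green) library. *Acta2* and the sum are lower in all 3 5C libraries, the sum without *Ttn*, not drawn, overlaps between genotypes, and both ratios overlap.

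The 6 pericyte markers, which mark the mural cells of small vessels, had 5 values below 0 and a median of -0.22. By edgeR 0 of them passed after adjustment and 1 was lower at an unadjusted p under 0.05, against 3.47% of all genes lower. Their summed level was 120.9, 111.6 and 135.4 CPM in WT against 108.5, 109.9 and 104.4 CPM in 5C, and here too every 5C sum lay below every WT sum. No single marker of the 6 separated the genotypes, however. *Pdgfrb*, the largest part of the sum, measured 66.7, 58.9 and 79.8 CPM in WT against 59.7, 52.5 and 55.2 CPM in 5C. *Pdgfrb* had -0.29 (SE 0.11), and *Rgs5*, the 1 marker above 0, had 0.04 (SE 0.12). The part of mural cells in the members' values was not tested. The 6 endothelial markers had a median of -0.02, with *Kdr* at -0.08 (SE 0.06) and *Pecam1* at 0.07 (SE 0.08). Of the 6 skeletal muscle markers tested, 3 lay below 0 and 3 above, with *Myh3* at -0.28 (SE 0.15) and *Myog* at -0.20 (SE 0.15).

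Markers of tissue outside the embryo differed widely between libraries of 1 genotype. All 8 yolk sac endoderm markers were fitted below 0, with a median of -2.24, against 50.7% of all genes below 0. Of 7 decidual and uterine markers tested, 6 were fitted above 0 and 1 below, with a median of 1.63. By edgeR 0 of either list passed after adjustment. At an unadjusted p under 0.05, 1 yolk sac marker was lower, against 3.47% of all genes lower. At the same threshold 3 decidual and uterine markers were higher. No gene of any marker list was at 0 in every library. Decidual and uterine markers, *Prl8a2* and *Gzmd* among them, summed to 15.1, 12.6 and 52.8 CPM in WT against 44.4, 14.9 and 58.2 CPM in 5C. The uterus holds much smooth muscle, and its part in these values was not tested. In the same order of libraries, *Acta2* was 95.2, 92.9 and 87.1 CPM in WT against 69.9, 66.5 and 75.2 CPM in 5C. With WT replicate 1 and 5C replicate 3 left out together, the log2 fold change was -0.40 in *Acta2* and -0.29 in *Tagln*. Without replicate 2 of both genotypes it was -0.33 and -0.31.

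Base composition also moved with the fitted values. Over 16770 genes, log2 fold change and transcript GC content had a Spearman correlation of -0.312, and the members' median GC content was 52.6%, against 49.4% over all genes tested. With offsets for GC content, *Acta2* had a log2 fold change of -0.35 and *Tagln* -0.25, while *Myl9* and *Smtn* lay at 0.0028 and 0.03.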

How the data were processed

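RNA-seq libraries of whole E10.5 embryos (3 WT, 3 5C) were analysed. Per the study's methods, the authors made poly(A)-selected stranded libraries, read single ends of 40 bases, aligned them with STAR to GRCm38 and deposited unnormalised counts of reads for each Ensembl gene. Symbols, positions and lengths came from GENCODE M21 (55141 of 55401 identifiers matched). Members and gene lists were chosen with earlier results of these data known.

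Counts were filtered with filterByExpr, scaled by TMM and compared with edgeR 4.0.16 (R 4.3.3) by the legacy quasi-likelihood F-test, two-sided, with Benjamini-Hochberg adjustment over 16784 genes. A DEG had to pass 0.05 after adjustment and change over 1.5-fold. The SE was the log2 fold change over the square root of F. CPM used TMM-scaled totals. The methods were tested on simulated data, where false calls exceeded the nominal share in some settings, most when counts were drawn with each gene's own dispersion. Those false calls lay mostly in genes far more variable than the trend. Alternatives were other scalings, filters and tests (DESeq2 1.42.0, limma-voom 3.58.1), the replicate number as a block and libraries left out. GC offsets, WT replicate 1 with 5C replicate 3 left out, ratios, Poisson intervals and 40-base windows were added after the data were seen. Named genes were all members, the 2 smallest p-values of each related role, the 2 most abundant of each marker list, *Mir483* and the 5 most similar profiles. Whether libraries share a litter is not given, so p-values measure the spread between these pools.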

Additional observations from a re-analysis of the deposited data

How the results depend on the processing

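*Acta2*, *Tagln*, *Cnn1*, *Myocd*, *Cald1* and *Actg2* had a log2 fold change below 0 under every alternative in which they were fitted. *Actg2* could not be fitted without WT replicate 1, with that library and 5C replicate 3 left out, or with at least 10 counts in every sample. The members' median stayed between -0.30 and -0.11 over all alternatives. The count of DEGs was 0, and it was 319 (298 lower, 21 higher) without a count filter, 11 with DESeq2, 2 with WT replicate 1 and 5C replicate 3 left out, and 0 to 1 with each library left out. Members past the adjusted threshold rose from 0 to 1, *Acta2*, without a count filter and with DESeq2, and related genes from 0 to 1, *Tln1*, without a count filter. The cause was not tested. Members with a CArG box rose from 1 to 2 with 1 mismatch allowed, by construction. Values turned above 0 for *Myl9* without replicate 2 of both genotypes (0.067), for *Myl9* (0.0028) and *Smtn* (0.028) with GC offsets, for *Smtn* with GC offsets and the replicate block (0.025), and for *Myh11* (0.28) and *Smtn* (0.14) without WT replicate 1 and 5C replicate 3. With each library left out in turn, *Myh11* ranged from -0.34 to 0.30, *Smtn* from -0.17 to 0.060, *Myl9* from -0.17 to 0.032 and *Lmod1* from -0.40 to 0.0042. Between 8 and 10 members kept their place by TPM.

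Same-numbered libraries did not deviate together throughout (correlations -0.174, 0.202 and -0.166). These 3 values cannot show whether the numbers pair the samples, and replicate 2 of both genotypes shared a low *Kdm5d* level. With the replicate block the count of DEGs was 0, the members' log2 fold changes included -0.38 for *Acta2* and -0.31 for *Tagln*, and no call changed. Depth limits *Actg2*, *Myh11* and *Lmod1*, which rest on 3 to 59 counts per library.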
